A study of Rattus norvegicus with 6 samples.

Results

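The glucocorticoid receptor and 9 genes that glucocorticoids are known to induce were followed in the rostral ventrolateral medulla of hypertensive and normotensive rats. The genes were Nr3c1, which encodes the receptor, and Hsd11b1, Fkbp5, Tsc22d3, Ddit4, Klf9, Klf15, Gpd1, Sult1a1 and Gjb6. They were selected by the gene symbol in the deposited table, which had to be exactly one of these names. The 10 genes held 17 of the 31042 probe sets that were not array controls, and the table named 13683 genes in all. Of these genes 5 had 1 probe set, Nr3c1, Fkbp5 and Gpd1 had 2 each, and Klf9 and Klf15 had 3 each. The genes were chosen with earlier results of the same 6 arrays known, and with the strain comparison and their co-variation in view. Their strain differences and co-variation are therefore given as a description. These probe sets were part of the limma fit over the whole array, and how many of them it called is given beside the share of all probe sets, with nothing read from it.

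The study set spontaneously hypertensive rats (SHR), an inbred strain with high blood pressure, against rats of the WKY strain, spelled Wistar-Kyoko in the labels and taken here as Wistar-Kyoto, the usual normotensive comparison strain. Tissue from 3 SHR and 3 WKY rats was measured, each on an Affymetrix rat expression array of its own, so n counts animals. Both strains were untreated, weighed 250 to 350 g and lived under 12 h of light and 12 h of dark. Age, sex, time of day at death and hormone levels are not given in the sources used here. A bulk piece of tissue mixes neurons, glia and vessel cells, so fewer cells of a type and less RNA per cell cannot be told apart. The share of probe sets called Present ranged over the arrays from 64.8% to 67.0%, and the median log2 signal from 7.43 to 7.47. Over kept probe sets SHR animal 1 had, by a small margin, the lowest mean correlation with the other arrays of its strain. It was 0.970, against 0.973 for SHR animals 2 and 3 and 0.978 to 0.980 for the WKY animals. Results that rest on SHR animal 1 are given with and without it. Th, Dbh, Pnmt and Slc17a6, markers of the adrenergic and glutamatergic neurons of this region, were called Present on all 6 arrays.

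The glucocorticoid receptor is a transcription factor that waits in the cytosol, held by heat shock chaperones, until it binds a steroid such as corticosterone, the main glucocorticoid of rats. It then enters the nucleus and raises the transcription of genes near its binding elements in most cell types of the brain, glia included. The neurons of the rostral ventrolateral medulla drive the sympathetic nerves that set vessel tone. RNA levels of the receptor do not report its activity, which depends on the steroid, whereas the RNA of induced genes is commonly read as a sign of it.

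A receptor dimer binds a palindrome of the hexamer AGAACA, and well-studied binding elements of these genes can lie far from the start site. RefSeq (GRCr8) promoter windows were found for 8 of the 10 genes, with 12 start sites in all. Gpd1 and Hsd11b1 were not matched. The 250 bases before each start were searched for AGAACA on both strands (AGAACA or TGTTCT), for the palindrome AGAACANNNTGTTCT, which contains the hexamer on each strand, and for CACGTG, the E-box of the clock factors, which reads the same on both strands and does not contain the hexamer. The hexamer was in 2 of the 12 windows, those of Sult1a1 and of 1 start of Gjb6, against 17.5% of 33469 promoter windows. The palindrome was in 0 of the 12 windows and in 0.012% of all windows. The E-box was in 1 window, that of Klf15, against 5.59% of all. The 3 matching stretches are shown because they place the only receptor hexamers and clock element found beside these genes, with the match in capitals and each read 5′ to 3′ on the gene's own strand. A match is a run of letters and does not show binding. Coordinates are GRCr8, and those of Sult1a1 are chr1:190706113-190706362 (minus strand), of Klf15 chr4:124522765-124523014 (plus strand) and of Gjb6 chr15:35409112-35409141 (minus strand).
Sult1a1: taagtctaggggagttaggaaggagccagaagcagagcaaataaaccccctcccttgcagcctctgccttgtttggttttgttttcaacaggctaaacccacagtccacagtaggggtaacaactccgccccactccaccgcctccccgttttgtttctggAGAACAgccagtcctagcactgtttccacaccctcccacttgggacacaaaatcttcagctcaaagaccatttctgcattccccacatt
Klf15: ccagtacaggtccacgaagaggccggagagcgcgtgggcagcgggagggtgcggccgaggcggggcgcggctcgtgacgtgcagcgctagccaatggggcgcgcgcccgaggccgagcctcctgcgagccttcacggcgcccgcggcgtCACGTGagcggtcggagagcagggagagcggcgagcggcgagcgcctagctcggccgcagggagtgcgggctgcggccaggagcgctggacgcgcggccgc
Gjb6: gaatctgaccagTGTTCTagaagagaaacg

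Log2 signals of the receptor overlapped between the strains, while 5 of the induced genes had every SHR animal above every WKY animal, by their brightest sets, an order that 7.26% of all kept probe sets showed. Since the genes were chosen with this contrast known, nothing is read from that count. Ddit4 and Gpd1 stood about 1.5-fold higher in SHR, Klf9 and Klf15 1.28-fold and 1.27-fold, and Tsc22d3 1.15-fold. Fkbp5 and Hsd11b1, at 1.08-fold and 1.03-fold, overlapped between the strains, as did Sult1a1 at 1.53-fold and Gjb6 at 1.22-fold. These folds are for the brightest probe set of each gene. Of the 17 probe sets, 13 were Present on at least 3 arrays and were kept. The other 4 (1 of Nr3c1, 2 of Klf9 and 1 of Klf15) were Absent on all 6 arrays and give no level. Of the 13 kept sets, 12 were Present on all 6 arrays. The other, the dimmer set of Gpd1, was Present only in SHR, entered through that strain alone and is left out of the counts below.

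**Figure D1:**
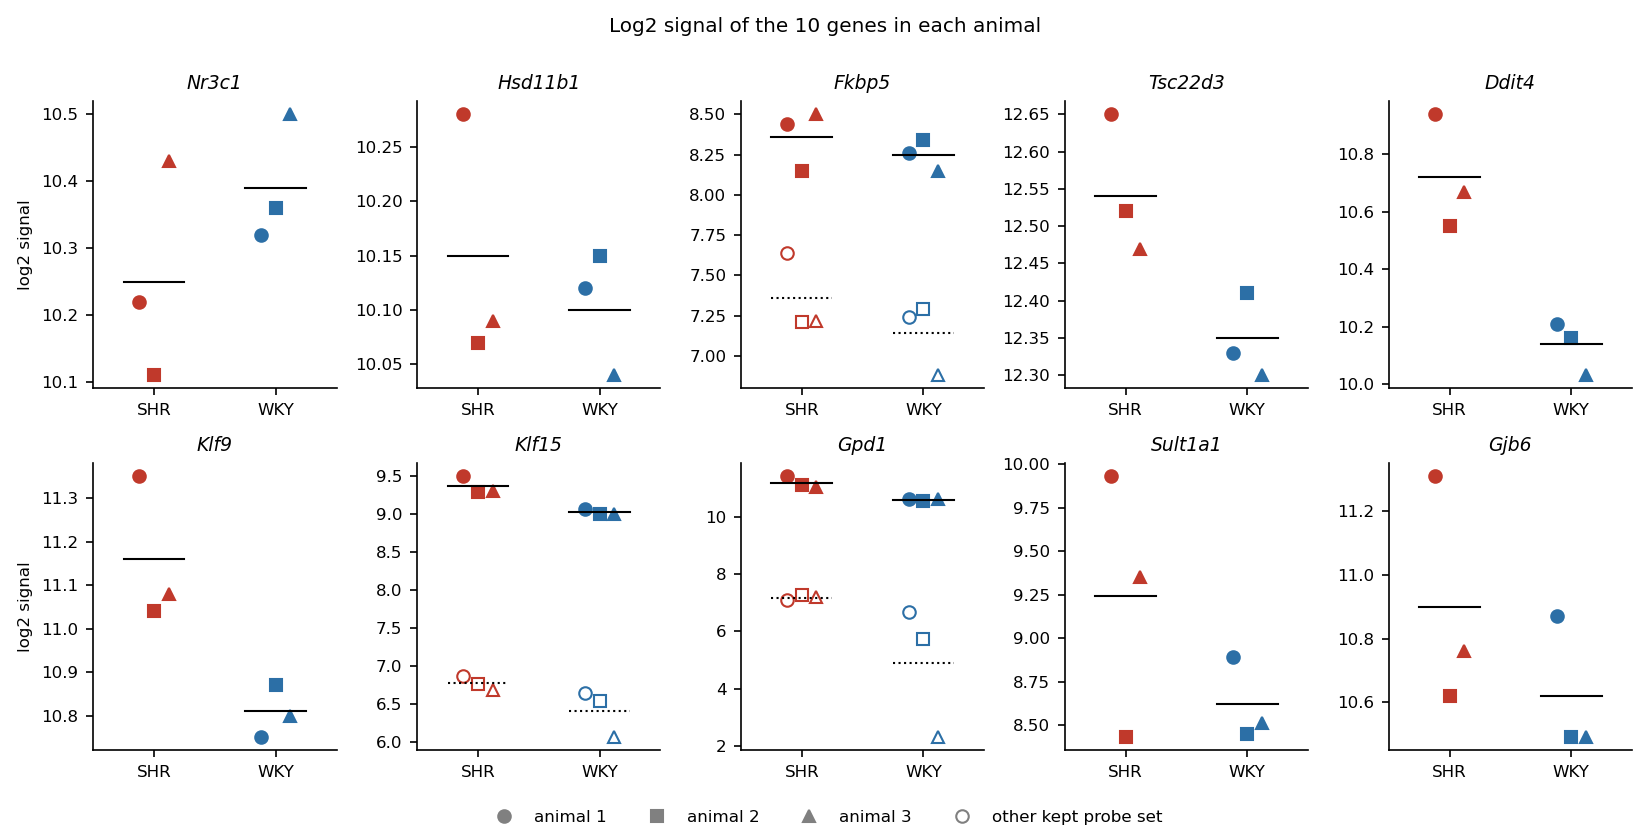
Log2 signal of each gene in each animal (vertical axes differ and do not start at 0), SHR left and WKY right, with lines at strain means, filled points for the brightest probe set and open points for another kept set. The 3 SHR animals lie above the 3 WKY animals for Tsc22d3, Ddit4, Klf9, Klf15 and Gpd1.

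Nr3c1, the receptor itself, had log2 signals of 10.22, 10.11 and 10.43 in the 3 SHR animals, against 10.32, 10.36 and 10.50 in the 3 WKY animals. The highest SHR animal lay above 2 of the WKY animals. SHR averaged 10.25 ± 0.16 and WKY averaged 10.39 ± 0.09 (SD, 3 animals per strain), and SHR minus WKY was -0.14 ± 0.10 (limma SE). It was -0.07 without SHR animal 2, -0.23 without SHR animal 3 and -0.09 without WKY animal 3. The deposited table aligns the set to chromosome 18, 31408741 to 32348480 (Rnor5.0, minus strand). It was brighter than 81.2% of kept probe sets. The annotation used holds no exons, so no exon, intron or untranslated region was assigned here or below.

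Hsd11b1 encodes the enzyme that regenerates active glucocorticoid from its inert keto form inside cells, and so sets the steroid that reaches the receptor. Its signals were 10.28, 10.07 and 10.09 in SHR and 10.12, 10.15 and 10.04 in WKY. All but the first SHR animal lay within the WKY range. The difference was 0.04 ± 0.09 (SE), and the set aligns to chromosome 13 at 116502233 to 116528121. Without SHR animal 1 the difference was -0.02 ± 0.09.

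Fkbp5 encodes a co-chaperone that lowers the affinity of the receptor for its steroid, a feedback arm that the receptor induces. Its brighter set read 8.44, 8.15 and 8.50 in SHR against 8.26, 8.34 and 8.15 in WKY. The dimmer set read 7.64, 7.21 and 7.22 in SHR against 7.24, 7.29 and 6.88 in WKY. Both sets overlapped, and they differed by 0.11 ± 0.14 and 0.22 ± 0.21 (SE). Leaving out 1 animal moved the brighter set to between 0.05 (without SHR animal 3) and 0.22 (without SHR animal 2), and the dimmer set to between 0.08 (without SHR animal 1) and 0.30 (without WKY animal 2). The brighter set aligns to chromosome 20 at 10177081 to 10177482. For a gene often used as a readout of receptor activity, the difference was about the size of its error or smaller.

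Tsc22d3 encodes a leucine zipper protein, also called GILZ, that restrains inflammatory transcription factors. It was the brightest of the genes, above 97.4% of kept probe sets. Its signals were 12.65, 12.52 and 12.47 in SHR against 12.33, 12.41 and 12.30 in WKY. The strains did not overlap, with a gap of 0.06 between the lowest SHR and the highest WKY animal. The difference was small, at 0.20 ± 0.06 (SE). The deposited alignment puts the set on chromosome 3 and the RefSeq table of GRCr8 puts the gene on chromosome X, so no position is given.

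Ddit4, also called REDD1, encodes an inhibitor of the growth kinase complex mTORC1 and is induced by glucocorticoids, hypoxia and energy stress. Its signals were 10.94, 10.55 and 10.67 in SHR against 10.21, 10.16 and 10.03 in WKY. The gap between the strains was 0.34, and SHR averaged 10.72 ± 0.20 while WKY averaged 10.14 ± 0.09 (SD, 3 animals per strain). The difference was 0.59 ± 0.10 (SE), and 0.48 ± 0.09 without SHR animal 1. The set aligns to chromosome 20 at 31315025 to 31317123 (minus strand).

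The zinc finger transcription factors Klf9 and Klf15 both act downstream of the receptor. Klf9 also responds to thyroid hormone, and Klf15 governs amino acid and lipid use. Klf9 read 11.35, 11.04 and 11.08 in SHR against 10.75, 10.87 and 10.80 in WKY, a difference of 0.35 ± 0.09 (SE) on chromosome 1 at 248193533 to 248218257. Klf15 read 9.49, 9.29 and 9.30 in SHR against 9.06, 9.0 and 9.0 in WKY, a difference of 0.34 ± 0.10 (SE) on chromosome 4 at 186906049 to 186918639. Neither gene overlapped between the strains. The dimmer Klf15 set, which can bind more than one transcript by its design type, read 6.87, 6.76 and 6.68 in SHR against 6.64, 6.54 and 6.06 in WKY, so it kept the order with a gap of 0.04.

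Gpd1 encodes the cytosolic dehydrogenase that links glycolysis to glycerol lipids, and in rat brain it is known as an oligodendrocyte enzyme induced by glucocorticoids. Its brighter set read 11.40, 11.11 and 11.02 in SHR against 10.60, 10.54 and 10.62 in WKY. The gap of 0.39 was wider than the whole WKY range, and the difference was 0.59 ± 0.10 (SE). The dimmer set read 7.09, 7.27 and 7.19 in SHR, all Present, against 6.69, 5.74 and 2.31 in WKY, all Absent. The dimmer set was thus called Present in SHR and not in WKY, but WKY animal 1 lay only 0.4 below the lowest SHR animal, and the mean difference of 2.27 was 0.97 without WKY animal 3 and 0.92 with a pseudocount of 64. No fold is given for it. The table aligns both sets to chromosome X and the GRCr8 table puts the gene on chromosome 7, so no position is given. The 9 measured oligodendrocyte markers differed by a median of -0.08, with all 9 lower in SHR and none called, and their summed signal was 87918 to 94969 in SHR against 96635 to 102546 in WKY. What part oligodendrocyte content had in the Gpd1 difference was not tested.

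Sult1a1, a sulfotransferase of phenols and catechols, and Gjb6, which encodes a gap junction protein of astrocytes and meningeal cells, varied most among SHR animals, by their brightest sets. Sult1a1 read 9.93, 8.43 and 9.35 in SHR against 8.89, 8.45 and 8.51 in WKY, on chromosome 1 at 205079584 to 205083105. SHR animal 2 lay below all WKY animals and SHR animal 1 above all of them, and the difference was 0.62 ± 0.30 (SE) with all animals and 0.27 ± 0.24 without SHR animal 1, and reached 1.02 without SHR animal 2. The Gjb6 set read 11.31, 10.62 and 10.76 in SHR against 10.87, 10.49 and 10.49 in WKY, on chromosome 15 at 41248072 to 41256852. Its difference was 0.28 ± 0.17 (SE), and 0.07 ± 0.12 without SHR animal 1, while leaving out any other single animal gave 0.22 to 0.42. SHR animal 1 thus carried most of the strain difference in both genes.

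**Figure D2:**
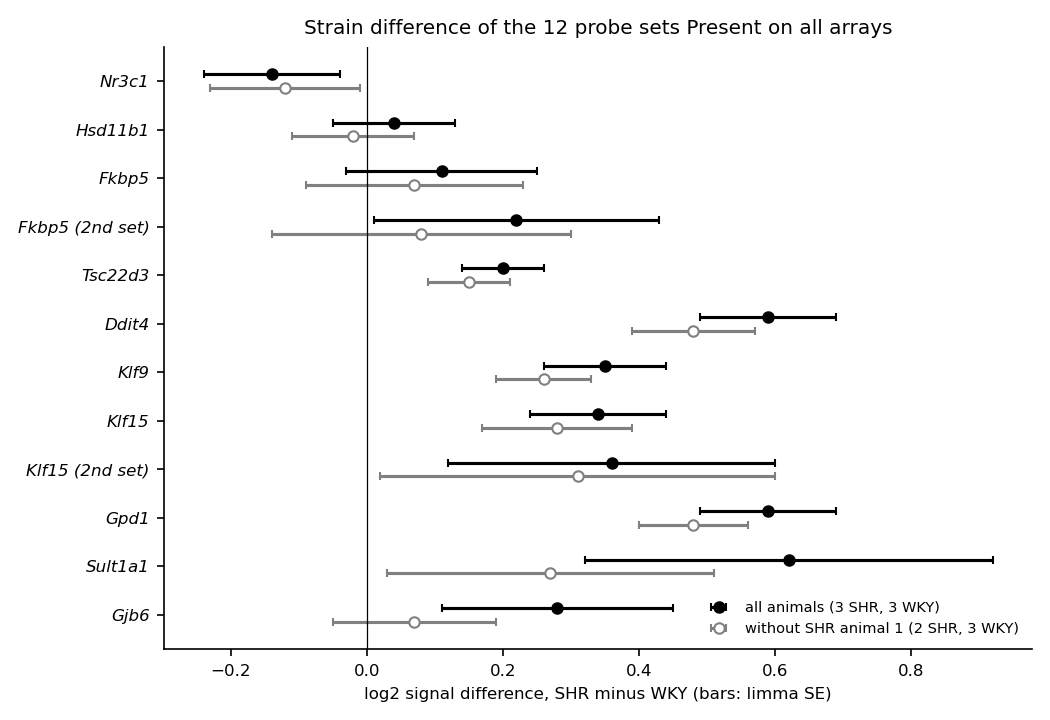
Difference in log2 signal, SHR minus WKY, with limma standard errors, of the 12 probe sets Present on all arrays, filled with all 6 animals and open without SHR animal 1. Ddit4 and Gpd1 stand at 0.59 with small errors, while Hsd11b1, Gjb6 and both Fkbp5 sets lie within their error of 0 without that animal.

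In the limma fit over all 20790 kept probe sets, 2 of the 12 sets Present on all arrays passed an adjusted p of 0.05, the Ddit4 set and the brighter Gpd1 set, both higher in SHR. Over all kept sets 0.924% passed, 0.524% higher and 0.399% lower in SHR. Both calls were lost without WKY animal 1, 2 or 3 and without a variance trend, and that of Ddit4 without SHR animal 3. All 3 SHR animals lay above all 3 WKY animals for 6 of the 12 sets, against 7.26% of all kept sets, and below them for 0, against 7.76% of all. The median difference of the 12 sets Present on all arrays was 0.31, and that of all kept sets was 0.001. SHR animal 1 lay above the SHR mean on the sets of the induced genes and below it on that of Nr3c1, so leaving it out moved each difference toward or past 0. The difference became smaller in size for 12 of the 12 sets, with 10 above 0. The share of all kept sets that became smaller is not given here, so nothing is read from that count. The 2 SHR animals left lay above all 3 WKY animals for 6 of the 12 sets, against 13.2% of all kept sets. The differences were then 0.15 ± 0.06 for Tsc22d3, 0.26 ± 0.07 for Klf9, 0.28 ± 0.11 for the brighter Klf15 set and 0.48 ± 0.08 for the brighter Gpd1 set (limma SE).

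Within SHR the 9 induced genes shared a direction in 2 animals: all lay above the strain mean in SHR animal 1 and all below it in SHR animal 2. In SHR animal 3 and the 3 WKY animals their deviations had mixed signs. SHR animal 1 had the highest signal of the 3 SHR animals for 8 of the 9, Fkbp5 being the exception, while it was the highest for 36.0% of all kept probe sets. SHR animal 2 had the lowest for 7 of the 9, against 32.6% of all. The median deviation from the strain mean over the 9 genes was 0.19 in SHR animal 1, -0.11 in SHR animal 2 and -0.06 in SHR animal 3, against 0.01, 0.02 and -0.06 in WKY animals 1, 2 and 3. In WKY, animal 1 was highest for 4 genes and lowest for 1, animal 2 highest for 4 and lowest for 3, and animal 3 highest for 1 and lowest for 5. No WKY animal held the highest or lowest place for as many genes as SHR animals 1 and 2 did. The receptor did not follow this order: Nr3c1 deviated by -0.03, -0.14 and 0.18 in SHR animals 1, 2 and 3.

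**Figure D3:**
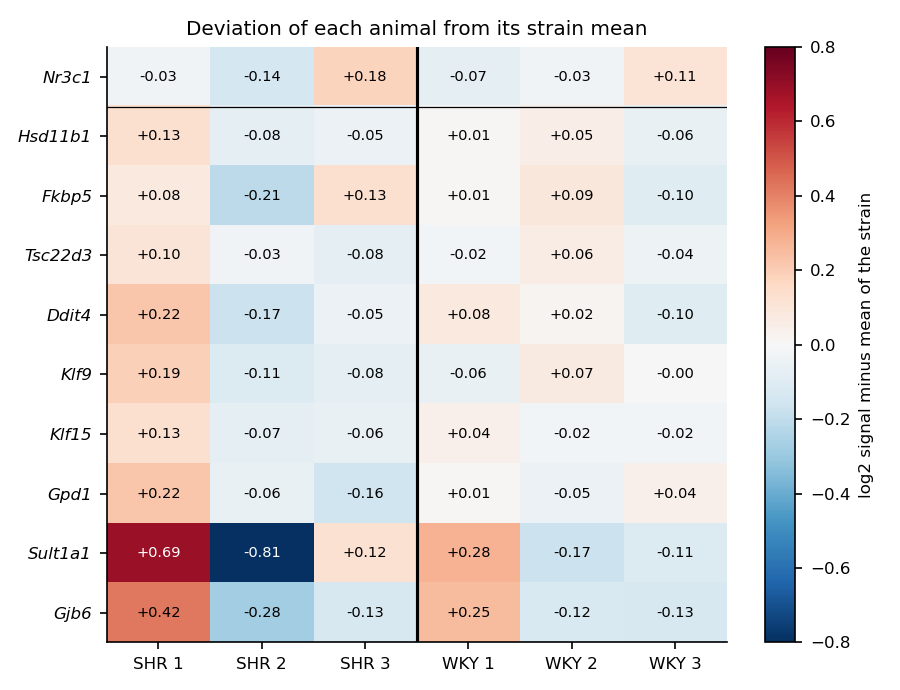
Deviation of each animal from the mean of its strain, in log2 units, for the brightest probe set of each gene (red above, blue below), SHR animals left and WKY animals right. The column of SHR animal 1 is above 0 for all 9 induced genes, from 0.08 to 0.69.

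Across the 6 deviations from the strain means, each pair of the 9 induced genes had a Pearson correlation above 0, with a median of 0.75 over 36 pairs and a range of 0.02 to 0.96. Over all pairs of kept probe sets the median was 0.0, with quartiles at -0.41 and 0.42. The points share their arrays, and 2 strain means were removed from 6 values. The closest pairs were Klf15 with Gjb6 at 0.96 and Hsd11b1 with Ddit4 at 0.95, and the weakest was Fkbp5 with Gpd1 at 0.02. Correlations of Nr3c1 with the 9 genes ran from -0.44 to 0.47, with a median of -0.16. That median was -0.82 without SHR animal 2, with 9 of 9 below 0, and 0.12 without SHR animal 3, with 0 of 9 below 0, so its sign rested on single animals. The co-variation of the 9 genes around their strain means rested on 1 animal: without SHR animal 1 the median over the 36 pairs was 0.18, with 22 pairs above 0 and a range of -0.96 to 0.96. Without any other single animal the median lay between 0.74 and 0.87. Over the log2 signals themselves, which also carry the strain difference, the median was 0.75 with all animals, with 36 of 36 pairs above 0. Without SHR animal 1 it was 0.40, with 32 of 36 pairs above 0.

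Other measures set SHR animal 1 and SHR animal 2 apart as well. The 8 mural and meningeal markers summed to 4428, 2189 and 3029 in SHR animals 1, 2 and 3, against 3032, 2869 and 2656 in the WKY animals. Among SHR animals this order, highest in animal 1 and lowest in animal 2, was also that of 6 of the 9 induced genes, namely Hsd11b1, Ddit4, Klf9, Klf15, Sult1a1 and Gjb6. The share of all kept probe sets in that order is not given here, so nothing is read from the count. Of the mural and meningeal markers Rgs5, Kcnj8 and Col1a1 were not in that order. The 7 astrocyte markers had a mean log2 signal of 11.40, 10.96 and 11.27 in SHR, against 11.21, 11.17 and 11.09 in WKY. Microglia markers averaged 8.57, 8.31 and 8.43 in SHR, against 8.32, 8.46 and 8.48 in WKY. Endothelium markers averaged 10.16, 9.72 and 9.96 in SHR, against 10.14 in each WKY animal. Of the 6 measured, 4 were lower and 2 higher in SHR. Among them Vwf read 8.90, 8.12 and 8.17 in SHR against 9.23, 9.38 and 9.14 in WKY (limma adjusted p = 0.0972), with every SHR animal below every WKY animal. The astrocyte, microglia and endothelium lists were also highest in SHR animal 1 and lowest in SHR animal 2. By mean log2 signal, neuron markers, at 12.51, 12.68 and 12.60 in SHR, and choroid plexus and ependyma markers ran the other way between these animals. The summed neuron signal did not, at 85496, 83443 and 82677 in SHR animals 1, 2 and 3. Syt1, the dimmest neuron marker, read 6.98, 8.57 and 8.18 in SHR. Rbfox3, Nefm and Map2 were also lower in SHR animal 1 than in SHR animal 2, while Snap25, Nefl, Tubb3 and Stmn2 were higher. The 9 measured markers of this region include Th, Dbh and Hoxb5. Their mean was 8.60, 9.06 and 8.98 in SHR against 9.28, 9.0 and 9.55 in WKY, lowest in SHR animal 1. Of the 9 markers 7 were lower in SHR, with none called. Among SHR animals Dbh, at 7.80, 6.91 and 7.28, and Pnmt, at 8.24, 7.70 and 7.65, were instead highest in animal 1. The other markers of this list were lowest there. Th varied widely within each strain, at 9.55, 9.96 and 10.99 in SHR against 9.50, 8.84 and 11.64 in WKY. Hoxb5, a gene of hindbrain position, read 6.71, 8.55 and 7.51 in SHR against 9.36, 9.22 and 8.75 in WKY, with every SHR animal below every WKY animal (difference -1.52, limma adjusted p = 0.123). Its relative Hoxa5 differed by -0.99 (adjusted p = 0.279). The difference between the 3′ and 5′ control sets of beta-actin, a measure of RNA integrity and labelling, was 1.69, 1.39 and 1.24 in SHR against 1.39, 1.30 and 1.29 in WKY, highest in SHR animal 1. For Gapdh it was 0.32, 0.26 and 0.27 in SHR against 0.26, 0.23 and 0.27 in WKY, and for hexokinase 0.98, 0.83 and 1.08 in SHR against 1.72, 1.5 and 1.5 in WKY, so the hexokinase measure was lower in all SHR animals. The part of these in the results was not tested. No marker of the 9 cell type and region lists was called between the strains on its brightest set, and neuron markers summed to 82677 to 85496 in SHR against 79255 to 88707 in WKY. Of the choroid plexus markers Kl was Absent on all 6 arrays, while Ttr read 6.51, 9.38 and 6.83 in SHR against 6.59, 6.62 and 6.60 in WKY, and the list summed to 821 in SHR animal 2 against 259 to 308 in the other animals. Of the neutrophil markers S100a8 was Absent on all 6 arrays, while S100a9, Present on 3, read 7.10, 6.64 and 6.14 in SHR against 5.04, 5.11 and 4.64 in WKY (limma adjusted p = 0.0628).

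**Figure D4:**
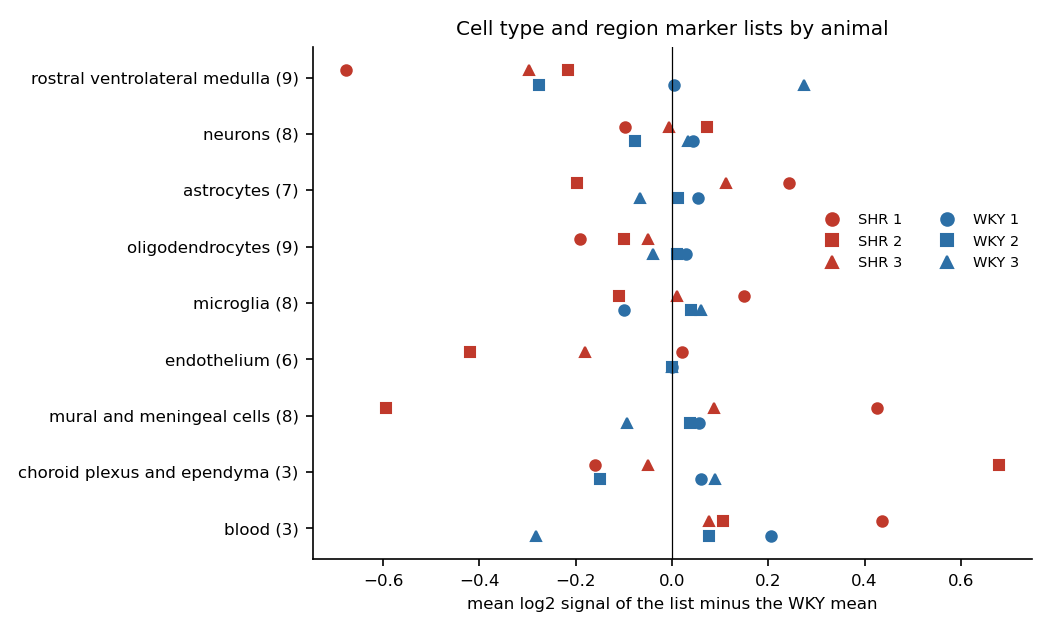
Mean log2 signal of each marker list in each animal, minus the mean of the 3 WKY animals, with SHR points above WKY points in each row and the number of measured markers in brackets. SHR animal 1 is highest and SHR animal 2 lowest for the astrocyte, microglia, endothelium, and mural and meningeal markers. For the neuron markers and the choroid plexus and ependyma markers SHR animal 2 is highest and SHR animal 1 lowest. The summed signal of the neuron markers was not in that order.

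Of 40 other genes known to be induced by glucocorticoids, 28 were measured. Limma called 3 of them, Sgk1 and Sesn1 higher and Dusp1 lower in SHR, where 0.924% of all kept sets were called. An unadjusted p under 0.05 was found for 11 of the 28, against 9.52% of all kept sets. The median difference of the list was 0.19, with 20 genes above 0 and 8 below. All SHR animals lay above all WKY animals for 10 of the 28, against 7.26% of all kept sets, and below for 3, against 7.76%. The list comes from general knowledge of the pathway. Its most marked genes were known from earlier results when it was written, so it is no independent support for a direction.

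Sgk1, a kinase that controls sodium and ion transporters, read 11.55, 11.57 and 11.48 in SHR against 10.71, 10.57 and 10.56 in WKY, a rise of 0.92 ± 0.07 (limma SE, adjusted p = 0.000219). Unlike the 9 induced genes it was not higher in SHR animal 1 than in animal 2. Sesn1, which encodes a leucine-sensing inhibitor of mTORC1, as Ddit4 inhibits that complex, read 9.38, 9.39 and 9.75 in SHR against 8.40, 8.72 and 8.92 in WKY. It rose by 0.83 ± 0.15 (adjusted p = 0.0386), a call lost without SHR animal 2 or 3, without WKY animal 1, 2 or 3, without a filter and without a variance trend (adjusted p between 0.0542 and 0.179). A second, dimmer Sesn1 set differed by -0.23 and was not called. Dusp1, a phosphatase that switches off MAP kinases, read 9.94, 9.53 and 9.56 in SHR against 10.32, 10.60 and 10.60 in WKY. It fell by 0.83 ± 0.13 on the log2 scale (limma, adjusted p = 0.0123), a call lost when WKY animal 2 or 3 or the variance trend was left out (adjusted p from 0.0799 to 0.134). A dimmer Dusp1 set differed by -0.46 and was not called.

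Per1, a clock gene that the receptor induces directly, read 8.09, 7.38 and 7.95 in SHR against 5.18, 6.2 and 5.82 in WKY, yet its 1 probe set was called Absent on all 6 arrays, so no level or fold is drawn from it. Among 15 clock genes, whose levels cycle over the day, 12 were measured and limma called 0. On the brightest sets 0 had an unadjusted p under 0.05. A dimmer set of the clock gene Nr1d2 differed by 0.27 ± 0.08 (limma, unadjusted p = 0.0094, adjusted p = 0.263). All SHR animals lay above all WKY animals on that set, while the other Nr1d2 sets differed by 0.07 and -0.10 and overlapped. Bmal1 (Arntl in the deposited table), a core activator of the clock, read 7.82, 7.69 and 7.84 in SHR against 8.18, 7.97 and 8.10 in WKY, a difference of -0.30 ± 0.14 (adjusted p = 0.567). Bhlhe41, a clock repressor, differed by 0.11 ± 0.06 (adjusted p = 0.652).

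**Figure D5:**
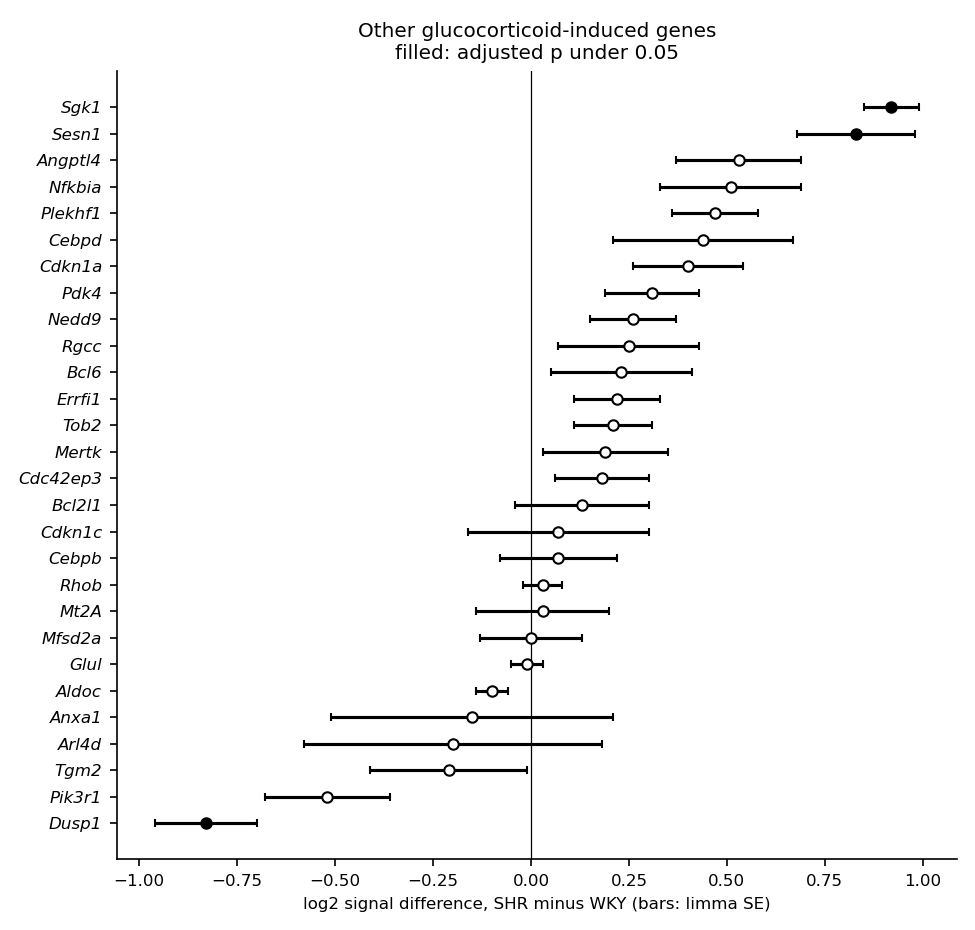
Difference in log2 signal, SHR minus WKY, with limma standard errors, of the 28 measured genes of the list of other glucocorticoid-induced genes, by the brightest probe set. Filled points are the 3 genes with an adjusted p under 0.05, Sgk1 at 0.92, Sesn1 at 0.83 and Dusp1 at -0.83.

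Around the receptor no chaperone or co-regulator was called on its brightest set. Of 20 chaperones and co-regulators 16 were measured, and limma called 0 on the brightest sets, with 2 at an unadjusted p under 0.05. Fkbp1a, a small relative of Fkbp5 that binds immunosuppressants, stood at -0.23 ± 0.06 (adjusted p = 0.170), and its 2 dimmer sets at -0.20 and -0.31, with no set called and with all SHR animals below all WKY animals on each. Smarca4, the motor of a chromatin remodelling complex that the receptor recruits, differed by -0.17 ± 0.07 (adjusted p = 0.485), and its 2 dimmer sets by 0.07 and -0.01. Hsp90ab1, the chaperone that holds the receptor ready, averaged 13.32 ± 0.03 in SHR animals and 13.32 ± 0.05 in WKY animals (SD, 3 per strain). The co-repressor gene Ncor1 was called on a dimmer set only, where it fell by 0.87 ± 0.17 on the log2 scale (limma, adjusted p = 0.0480). Its brightest set differed by 0.03 and a further set by 0.50, neither called, and the call was lost in 8 alternatives (adjusted p from 0.0652 to 0.241).

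Of 12 genes of steroid handling 5 were measured, and limma called 0, with 0 at an unadjusted p under 0.05 on the brightest sets. Nr3c2, the mineralocorticoid receptor, which binds the same steroid with higher affinity, read 9.45, 9.48 and 9.33 in SHR against 9.36, 9.38 and 9.36 in WKY, so SHR minus WKY was 0.05 ± 0.09. Akr1c14, which reduces steroid metabolites, differed by 0.52 ± 0.44 (adjusted p = 0.775) and Abcb1a, a pump that keeps steroids out of the brain, by -0.10 ± 0.17 (adjusted p = 0.904). A second Abcb1a set differed by 0.35 ± 0.14 (limma, unadjusted p = 0.0341, adjusted p = 0.464), with all SHR animals above all WKY animals. Hsd11b2, which inactivates corticosterone, was Absent on all 6 arrays. Of 12 inflammatory and hypothalamic genes that glucocorticoids hold down, 5 were measured and limma called 0, with 1 at an unadjusted p under 0.05. These were led by Cxcl10, an interferon-induced chemokine called Present on 1 SHR and 2 WKY arrays, at -0.82 ± 0.36 (adjusted p = 0.510) and Nfkb1, which encodes a subunit of the transcription factor NF-kB, at 0.22 ± 0.11 (adjusted p = 0.591).

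The profile of the 9 induced genes, averaged after centring each gene over the 6 arrays, was 0.42, -0.03 and 0.13 in SHR animals 1, 2 and 3, against -0.11, -0.18 and -0.23 in WKY animals 1, 2 and 3. Among the members Klf15 and Klf9 lay closest to it, with root mean square differences of 0.075 and 0.079 in log2 units over the 6 arrays, and Sult1a1 lay farthest of the 9, at 0.359. Of 10408 other genes, those closest were Neo1 at 0.030, Osbpl6 at 0.031, Nipsnap2 at 0.063, Atp10d at 0.064 and Ibtk at 0.070, against a median of 0.260. Closest to Nr3c1 were Serp2 at 0.027, Tbl1x at 0.035 and Gsta1 at 0.037, against a median of 0.187. With 6 arrays and this many genes, such nearness is a description of these arrays.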

How the data were processed

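Total RNA of 6 rats was labelled with the 3′ IVT kit and hybridised, per the labels' protocols. Per the submitters' processing notes the tool was MAS5, with its version not given in the sources used here. The authors deposited log2 signals with a detection call per probe set, and linear intensities. The deposited log2 values were the log2 of the deposited intensities (values below 1 raised to 1), to within 8.2e-06, and the mean of the intensities trimmed by 2% at each end was 500.14 on every array. No further normalization was applied.

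Of 31042 probe sets that were not controls, 20790 (67.0%) were Present on at least 3 of 6 arrays and were kept. The strains were compared with limma 3.58.1 in R 4.3.3 (lmFit, eBayes with a variance trend), with Benjamini-Hochberg adjustment over all kept probe sets and a threshold of 0.05. The steps were tested on simulated data. Arrays give no counts, so the number of animals limits the precision, and the median standard error of a difference was 0.15. Each list gene was represented by its brightest kept probe set, and 1031 probe sets with several symbols were not used for names. Symbols were updated by Entrez ID through RefSeq (GRCr8). Named were all 10 genes, the 2 genes with the smallest p of each list and every called one, the 5 genes closest to the mean profile and the 3 closest to Nr3c1. Other genes named, such as Hsp90ab1, Nr3c2, Hsd11b2 and Per1, were added after their values were seen. The genes and lists were chosen with earlier results of these data known. Deviations of same-numbered animals of the 2 strains had correlations of 0.08, -0.01 and 0.07, against -0.12 to 0.07 for unlike numbers. Such values cannot show whether same-numbered animals were handled together, and the main fit treated the samples as unpaired. Alternatives were other normalizations, pseudocounts of 16 and 64, other filters, no variance trend, a block for the replicate number, and leaving out each animal.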

Additional observations from a re-analysis of the deposited data

How the results depend on the processing

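Several member differences moved by large factors under the alternatives: Gjb6 ranged from 0.07 to 0.42, Sult1a1 from 0.27 to 1.02, the dimmer Gpd1 set from 0.92 to 3.16, Nr3c1 from -0.23 to -0.07 and the brighter Fkbp5 set from 0.05 to 0.22. Narrower ranges were those of Ddit4 (0.48 to 0.67), the brighter Gpd1 set (0.48 to 0.67), Klf9 (0.26 to 0.41), the brighter Klf15 set (0.28 to 0.37) and Tsc22d3 (0.15 to 0.24). Hsd11b1 changed sign without SHR replicate 1 (-0.02), and no other member did. The number of called probe sets was 192, with 63 without a variance trend and between 78 and 205 when 1 animal was left out, the values under 137 all coming from a left-out WKY animal. Called member probe sets numbered 2, with 0 without a variance trend and 0 to 2 when 1 animal was left out. Called list genes numbered 3, with 1 without a variance trend and 1 to 3 when 1 animal was left out. The median correlation of the induced genes around their strain means was 0.75, and 0.18 to 0.87 when 1 animal was left out, the lowest without SHR replicate 1. With the replicate number as a block, 196 probe sets, 2 member sets and 3 list genes were called. That fit ended the call of Ncor1 (adjusted p = 0.0652) and of no other named gene. Of the called list genes, Sgk1 alone stayed called under every alternative. Without a detection filter Per1, Absent on all arrays, had an adjusted p of 0.0308 in limma. With 3 animals a strain, differences near the standard error of 0.15 could not be seen, and signals called Absent carry no level.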
